A study of Mus musculus with 4 samples.

Results

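Transcripts of 7 chemokine receptor genes (Ccr1, Ccr2, Ccr3, Ccrl2, Cxcr2, Cxcr4 and Cx3cr1) were examined in mouse peritoneal macrophages. The genes were chosen by name and were found through their NCBI gene IDs, and they were 7 of the 16403 genes listed in at least 1 library. All 4 libraries came from thioglycolate-elicited peritoneal macrophages of C57BL/6 mice. Mice were injected with 4% thioglycolate, their peritoneal cells were collected 4 days later, and the macrophages were selected by adherence for 4 h and starved in medium with 0.5% FBS. The groups were Wild-type nontreat, Wild-type given mouse IL-4 at 20 ng/mL for 6 h, TIF1a-/- nontreat, and TIF1a-/- given the same IL-4. TIF1a is another name for Trim24, and these groups are called WT and Trim24 KO here. The KO mice carried floxed Trim24 alleles and LysM-Cre, which acts in macrophages, monocytes and neutrophils and is placed at the lysozyme gene Lyz2. WT littermates were the controls according to the study's methods, and the labels do not say whether they carried Cre or floxed alleles. The mice were 6 to 8 weeks old according to the methods, and the sex and number of mice behind each library are not given in the labels. Each group was 1 library. There is thus no replicate for any difference, and a test on a pair of libraries speaks about those libraries, not about the conditions.

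Chemokine receptors are G protein-coupled receptors with 7 membrane-spanning helices that steer migrating leukocytes along chemokine gradients. Most signal through inhibitory G proteins, and they are then phosphorylated by receptor kinases and taken up with arrestins. Ccr2 draws monocytes from blood into inflamed tissue, Cx3cr1 is known from patrolling monocytes and tissue macrophages, Cxcr2 from neutrophils and Ccr3 from eosinophils. Cxcr4, the receptor of Cxcl12, retains cells in the bone marrow. Ccrl2 is an atypical member that binds the chemoattractant chemerin without the usual signalling and presents it to the signalling receptor Cmklr1.

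The libraries held 11026033 to 11250099 expected reads over 14717 to 14923 listed genes, so 3 reads, the floor used for a level that could be shown, were 0.267 to 0.272 CPM (counts scaled to a fixed library total). Trim24 itself was listed at 2.55 FPKM in untreated WT macrophages and 1.48 FPKM in WT macrophages given IL-4, against 0.06 and 0.14 FPKM in the KO libraries, on 175, 103, 4 and 10 reads. Its level was thus low where the labels say KO. Each of the 7 macrophage markers was over 1 FPKM in every library. Their summed level was 14899 and 14763 FPKM in WT and 8946 and 8315 FPKM in the KO, most of it Lyz2, the gene that carries the Cre. All intervals and the floor reflect counting error alone, since each group is 1 library. Reads without molecular identifiers cannot be counted as separate molecules, so the counting error itself may be larger than shown.

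The promoters of Cxcr4, Ccrl2 and Cx3cr1 are shown because these receptors had the largest differences with IL-4. Each sequence is the 250 bases before the transcription start from the RefSeq promoter table for GRCm38.p6, on the gene's strand, with motif matches in capitals. The Ccrl2 sequence belongs to the outermost of its 3 starts in that table.
Cxcr4 (chr1:128592300-128592549, minus strand): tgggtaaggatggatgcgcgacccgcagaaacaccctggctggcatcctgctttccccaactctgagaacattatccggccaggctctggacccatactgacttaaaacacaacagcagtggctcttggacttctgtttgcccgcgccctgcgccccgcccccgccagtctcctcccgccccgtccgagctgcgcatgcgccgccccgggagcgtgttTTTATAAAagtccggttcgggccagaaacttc
Ccrl2 (chr9:111057519-111057768, minus strand): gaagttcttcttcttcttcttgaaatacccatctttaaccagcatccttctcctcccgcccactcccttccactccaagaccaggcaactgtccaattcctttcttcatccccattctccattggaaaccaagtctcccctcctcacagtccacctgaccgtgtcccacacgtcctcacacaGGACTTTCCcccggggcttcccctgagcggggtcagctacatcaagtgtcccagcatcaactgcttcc
Cx3cr1 (chr9:120068297-120068546, minus strand): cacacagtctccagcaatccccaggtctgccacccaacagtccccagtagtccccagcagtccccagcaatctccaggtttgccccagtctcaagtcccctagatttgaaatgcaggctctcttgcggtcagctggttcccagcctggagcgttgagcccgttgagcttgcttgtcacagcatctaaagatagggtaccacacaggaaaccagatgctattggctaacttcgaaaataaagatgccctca
Stat6, the transcription factor activated by IL-4, binds paired half-sites TTC and GAA separated by 4 or 3 bases. Neither spacing was found on either strand in any of the 9 promoters of the 7 genes, against 5.85% and 7.02% of the 32851 promoters in the table. The windows of Ccr3 and Ccr2 lie inside the gene spans given further below. The bases before the outer starts of those spans were therefore not searched. A pair of other motifs was searched after the sequences had been read. GGACTTTCC, a classical NF-kB site without its first G, began 68 bases before the Ccrl2 start, and 0.283% of all promoters held it on either strand. The base before it in the Ccrl2 sequence is A, so the full site is not there. TATAAA was found on both strands in overlapping positions 30 and 32 bases before the Cxcr4 start, and 12.4% of all promoters held it. No searched motif was found in the Cx3cr1 window. These matches describe letters in a window, not binding, and no match says only that these letters are not there.

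The receptors spanned a wide range of levels, and Cxcr4 and Ccrl2 together made up most of them. Of the 7 genes, 6 were listed in every library. FPKM, a gene's reads scaled by transcript length and library total, is used to compare genes with each other. The summed level of the 7 genes was 198 FPKM in untreated WT macrophages and 116 FPKM in WT macrophages given IL-4. It was 215 FPKM in untreated Trim24 KO macrophages and 114 FPKM with IL-4. Cxcr4 and Ccrl2 held 93.6% and 88.7% of this sum in WT, and 94.1% and 89.2% in the KO, in the same order. Bulk RNA cannot tell fewer cells of a type from less RNA per cell, which holds for each level below.

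**Figure D1:**
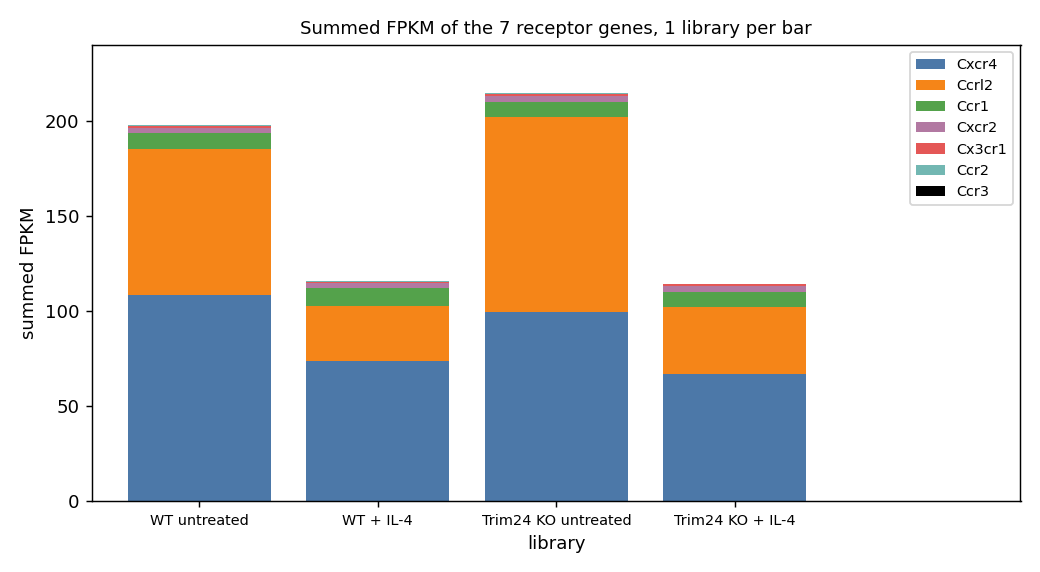
Summed FPKM of the 7 receptor genes (vertical axis) in the 4 libraries, each bar stacked by gene. Cxcr4 and Ccrl2 fill most of each bar, and the bars with IL-4 reach 116 and 114 FPKM against 198 and 215 FPKM without it.

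The order of levels was Cxcr4, Ccrl2, Ccr1, Cxcr2, Cx3cr1, Ccr2 and Ccr3 in 3 of the libraries, and Ccrl2 stood before Cxcr4 only in untreated KO macrophages. The 95% counting intervals of neighbours in this order overlapped for Ccrl2 and Cxcr4 in the untreated KO library and for Cx3cr1 and Ccr2 in the KO library with IL-4. The ratio of Cxcr4 to Ccrl2 levels was 1.41 and 2.55 in WT, in the same order of untreated and IL-4, and 0.973 and 1.92 in the KO.

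**Figure D2:**
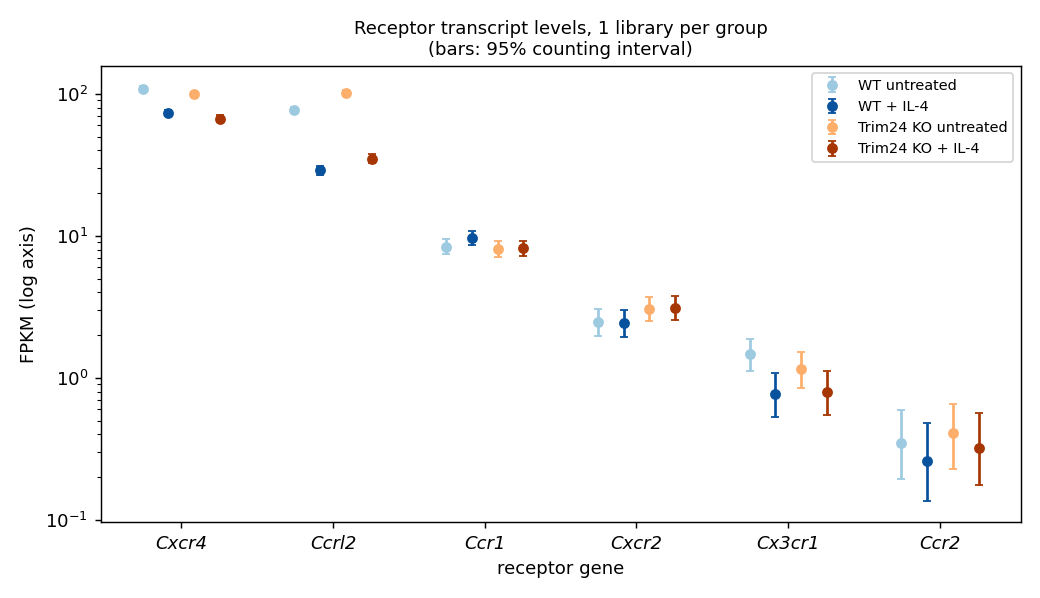
FPKM on a log axis for the 6 receptors listed in every library, with 1 point per library and bars for the 95% counting interval. Cxcr4 and Ccrl2 lie between 28.9 and 108 FPKM, and Ccr2 stays at or below 0.41 FPKM.

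In order to ask what IL-4 does to the receptors, each treated library was compared with the untreated library of the same genotype. Ccrl2 fell most in both genotypes. It was at 76.8 FPKM in untreated WT macrophages (1655 reads) and at 28.9 FPKM with IL-4 (639 reads). In the KO it was at 102 FPKM without IL-4 (2228 reads) and 35.0 FPKM with it (759 reads). Both IL-4 libraries lay under both untreated libraries. The log2 ratio, computed on FPKM + 0.1 with a standard error from counting alone, was -1.41 ± 0.067 in WT (two-sided Fisher's exact test adjusted over all genes, p = 1.4e-105) and -1.54 ± 0.061 in the KO (adjusted p = 9.5e-164). These are 2.65-fold and 2.92-fold decreases. The WT call rests on counting error and was lost once a spread between replicates was assumed, with an adjusted p of 0.054 at a biological coefficient of variation of 0.2.

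Cxcr4 was at 108 FPKM (2171 reads) in untreated WT macrophages and 73.6 FPKM (1506 reads) with IL-4. In the KO the levels were 99.5 FPKM (1994 reads) and 67.1 FPKM (1343 reads). Here too both IL-4 libraries lay under both untreated ones, and by nearly the same step. The same order held for Cx3cr1 and for Ccr2, which rested on few reads. The share of all genes with this order is not given here. The log2 ratio was -0.56 ± 0.048 in WT (Fisher's exact test, adjusted p = 1.6e-29) and -0.57 ± 0.051 in the KO (adjusted p = 4.4e-28). These decreases, of 1.47-fold and 1.48-fold, missed the 1.5-fold threshold taken from the study's methods, and Cxcr4 was therefore not counted as called in either pair. With a trend over transcript length removed the ratios were -0.63 and -0.60, and both passed.

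Cx3cr1, the fractalkine receptor, was at 1.47 FPKM (61.2 reads) in untreated WT macrophages and 0.77 FPKM (32.7 reads) with IL-4. In the KO it was at 1.15 FPKM (48.2 reads) and 0.80 FPKM (33.2 reads). It fell in WT with a log2 ratio of -0.85 ± 0.31 (Fisher's exact test, adjusted p = 0.013). In the KO the log2 ratio was -0.47 ± 0.32 (adjusted p = 0.30). The WT call was lost with a pseudocount of 1 FPKM, with a log2 ratio of -0.48, and with an assumed coefficient of variation of 0.2, with an adjusted p of 0.89.

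The inflammatory chemokine receptors Ccr1 and Cxcr2 did not pass the test with IL-4. Ccr1, which binds Ccl3, Ccl5, Ccl6 and Ccl9, was at 8.41 FPKM in untreated WT and 9.65 FPKM after IL-4, against 8.13 and 8.16 FPKM in the KO. Its log2 ratio was 0.20 in WT (95% counting interval, -0.041 to 0.43) and 0.0052 in the KO (-0.24 to 0.26). Cxcr2 was at 2.49 and 2.43 FPKM in WT and at 3.07 and 3.10 FPKM in the KO, on 84.1, 83.9, 104 and 105 reads. Its log2 ratio was -0.03 in WT (-0.47 to 0.40) and 0.01 in the KO (-0.38 to 0.40), and the sign of both changed with the scaling or with removal of the length trend.

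Ccr2 rested on few reads, and Ccr3 stayed under the floor. Ccr2 was at 0.35 and 0.26 FPKM in WT and at 0.41 and 0.32 FPKM in the KO, on 13.8, 10.6, 16.4 and 12.6 reads. Its log2 IL-4 ratio was -0.32 (-1.44 to 0.79) in WT and -0.28 (-1.32 to 0.76) in the KO and a difference was not detectable at this depth. Ccr3 was listed only in KO macrophages given IL-4, with 1 read at 0.03 FPKM, which is under the floor of 3 reads. In the other 3 libraries it was not listed and was set to 0.

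Over the receptors, 2 were called lower with IL-4 in WT (Ccrl2 and Cx3cr1), against 7.88% of the 15593 genes tested. In the KO 1 was called lower (Ccrl2), against 4.03% of 15738 genes, and none was called higher in either genotype. Over all genes that averaged at least 1 FPKM, the median log2 ratio was within 0.01 of zero in both pairs. An additive edgeR fit over the 4 libraries, in which genotype and IL-4 each have 1 effect and 1 residual degree of freedom is left, called 2 receptors lower with IL-4, against 13.3% of 11791 genes. They were Ccrl2, with a log2 effect of -1.47 (edgeR quasi-likelihood test, adjusted p = 4.4e-08), and Cxcr4, with -0.55 (adjusted p = 3.1e-04). Cx3cr1 had -0.72 in that fit (adjusted p = 0.053), and it was called lower with upper-quartile scaling (adjusted p = 0.030) and with the length trend removed (adjusted p = 0.032). The share of all genes called with those alternative settings is not given here.

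**Figure D3:**
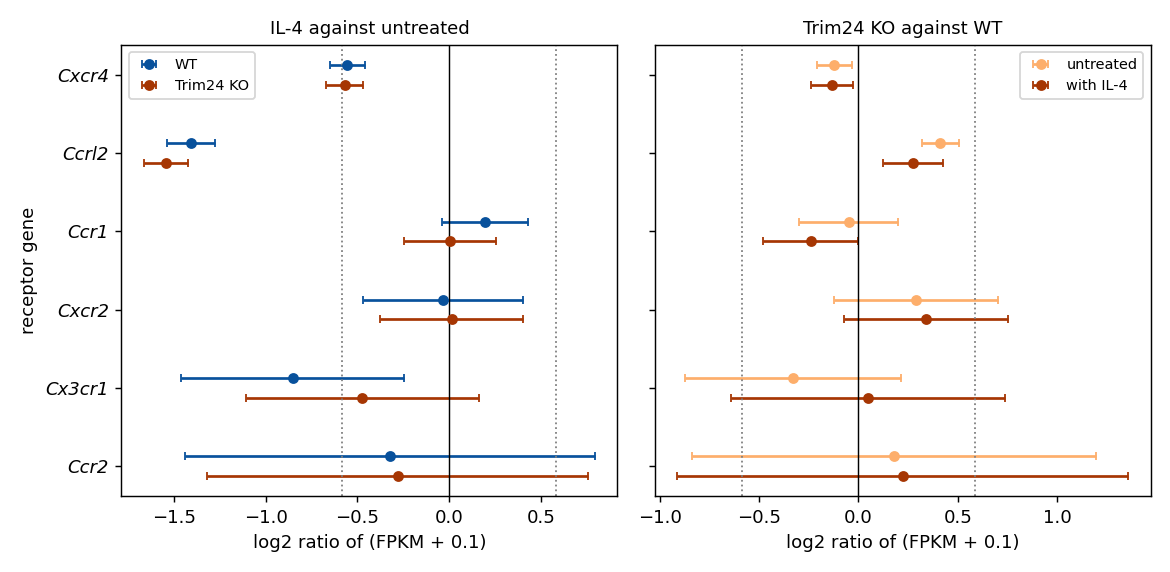
log2 ratios of (FPKM + 0.1) for the 6 receptors, for IL-4 against untreated in each genotype (left) and for Trim24 KO against WT at each treatment (right). Bars are 95% counting intervals, dotted lines mark a 1.5-fold difference, and only Ccrl2 and, in WT, Cx3cr1 lie beyond them.

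The KO and WT libraries were then compared at each treatment, to ask what loss of Trim24 does to the receptors. No receptor was called without IL-4, against 1.58% of 15623 genes, and none with IL-4, against 3.81% of 15573 genes. At an unadjusted p under 0.05 there were 2 receptors without IL-4 (Ccrl2 and Cxcr4), against 16.4% of all genes tested, and 3 with it (Ccrl2, Cxcr4 and Ccr1), against 28.5%. With edgeR's exact test at an assumed coefficient of variation of 0.2 none was called in either pair. No receptor differed by more than 1.5-fold between genotypes, so that test could not call one. Its share over all genes is not given here. Ccrl2 had the lowest adjusted p. It was 1.33-fold higher in untreated KO macrophages than in untreated WT macrophages, with a log2 ratio of 0.41 ± 0.047 (Fisher's exact test, adjusted p = 4.6e-18). With IL-4 it was 1.21-fold higher, with a log2 ratio of 0.28 ± 0.077 (adjusted p = 0.0029). Both differences are larger than counting error and smaller than the 1.5-fold threshold.

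The additive edgeR fit called no receptor for genotype, against 1.66% of 11791 genes. Only Ccrl2 had an unadjusted p under 0.05 in it, with a log2 effect of 0.36 (edgeR quasi-likelihood test, adjusted p = 0.080). The share of all genes with an unadjusted p under 0.05 in that fit is not given here. Ccrl2 was called higher in the KO in that fit with upper-quartile scaling (adjusted p = 0.042) and with the length trend removed (adjusted p = 5.3e-06). Its log2 effects there were 0.33 and 0.41, near that of the main fit, while the p-values moved far. The share of all genes called with these settings is not given here, so these calls have no background beside them. Ccrl2 was not called by DESeq2 (adjusted p = 0.67) or by limma on FPKM (adjusted p = 0.13).

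The other receptors differed less between genotypes. Cxcr4 had log2 ratios of KO to WT of -0.12 without IL-4 (adjusted p = 0.082) and -0.13 with it (adjusted p = 0.058). Cxcr2 had log2 ratios of 0.29 (adjusted p = 0.54) and 0.34 (adjusted p = 0.31), and Cx3cr1 had -0.33 (adjusted p = 0.68) and 0.05 (adjusted p = 1). Ccr1 had -0.05 (adjusted p = 0.97) and -0.24 (adjusted p = 0.17), and Ccr2 had 0.18 and 0.22. The comparisons share libraries, so these ratios are not independent of the IL-4 ratios.

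Whether the genotypes responded differently to IL-4 was tested directly. No receptor was called among the 5 that averaged at least 1 FPKM, against 2.87% of 10532 genes. For Ccrl2 the KO minus WT difference on the log2 scale was -0.15, with a 95% counting interval from -0.33 to 0.025 (z test, adjusted p = 0.30). For Cxcr4 it was -0.01 (-0.15 to 0.12, adjusted p = 0.94). For Cx3cr1, called in WT and not in the KO, it was 0.37 (-0.51 to 1.25, adjusted p = 0.68), so a difference between the genotypes was not shown. None of the 5 had an unadjusted p under 0.05, and the share of all genes that did is not given here.

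Several ligands of the receptors changed with IL-4. Of 17 ligand genes 16 were listed. In WT 7 were called higher and 3 lower, beside 766 higher and 1228 lower of the 15593 genes tested. In the KO 6 were called higher and 1 lower, beside 832 higher and 634 lower of 15738 genes. Their median log2 ratio, over the 12 that averaged at least 1 FPKM, was 0.55 in both genotypes, against all-gene medians within 0.01 of zero. Among Ccr1 ligands, Ccl6 went from 144 to 426 FPKM in WT and from 223 to 479 FPKM in the KO. Ccl9 was at 24.3 and 109 FPKM in WT and at 31.9 and 100.1 FPKM in the KO. Both were called higher with IL-4 in both genotypes, while Ccl3 was called lower, from 60.1 to 34.9 FPKM in WT and from 51.6 to 24.7 FPKM in the KO. Ccl5 was at 13.9 and 10.4 FPKM in WT and at 15.8 and 14.8 FPKM in the KO and was not called. With the length trend removed it was called higher in the KO than in WT with IL-4 (log2 ratio 0.68). Without IL-4, Ccl6 was also called higher in the KO than in WT. The level of Ccr1 itself stayed between 8.13 and 9.65 FPKM.

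The Ccr2 ligands Ccl2 and Ccl7 rose with IL-4, and the Ccr3 ligand Ccl24 rose as well. Ccl2 was at 4.51 and 22.5 FPKM in WT and at 2.66 and 11.5 FPKM in the KO. Ccl7 was at 0.91 and 16.1 FPKM in WT and at 0.61 and 6.72 FPKM in the KO, and both were called lower in the KO than in WT with IL-4. Ccl12 had at most 2 reads in a library. Ccl24 was at 0.21 and 5.02 FPKM in WT and at 0.43 and 4.41 FPKM in the KO. Ccl11, another Ccr3 ligand, had 0 reads in untreated WT and KO macrophages, 12 in WT with IL-4 and 4 in the KO with IL-4, and was called higher only in WT. Differences between the genotypes' responses are given for the receptors alone.

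The Cxcr2 ligands Cxcl1 and Cxcl5 were called lower with IL-4 in WT. Cxcl1 was at 4.51 and 1.41 FPKM in WT and at 2.30 and 1.54 FPKM in the KO, and Cxcl5 was at 2.69 and 0.70 FPKM in WT and at 1.37 and 0.55 FPKM in the KO. Neither passed in the KO, with adjusted p of 0.52 and 0.063, but Cxcl5 was called lower there with the length trend removed (log2 ratio -1.21). Cxcl2 was at 1.45 and 1.28 FPKM in WT and at 1.79 and 0.81 FPKM in the KO, and Cxcl3 at 0.63 and 0.68 FPKM in WT and at 0.81 and 0.86 FPKM in the KO. Cxcl2 and Cxcl3 were not called in any pair. Cxcl12, the ligand of Cxcr4, was at 0.83 and 1.47 FPKM in WT and at 0.68 and 2.82 FPKM in the KO. It was called higher with IL-4 in both genotypes (adjusted p = 0.047 and 8.3e-10), and higher in the KO than in WT with IL-4. The WT call of Cxcl12 was lost with the length trend removed. The Cx3cr1 ligand Cx3cl1 had at most 4 reads.

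Chemerin (Rarres2), the ligand of Ccrl2 and Cmklr1, was at 3.05 and 3.90 FPKM in WT and at 3.71 and 3.72 FPKM in the KO, and was not called in any of the 4 comparisons. Cmklr1, to which Ccrl2 presents chemerin, moved in the opposite direction from Ccrl2. It was at 21.3 FPKM in untreated WT and 32.4 FPKM after IL-4, against 20.3 and 31.3 FPKM in the KO. The log2 ratio was 0.61 in WT (Fisher's exact test, adjusted p = 1.2e-16) and 0.63 in the KO (adjusted p = 9.2e-17). Cmklr1 was called higher in both, also with the length trend removed.

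**Figure D4:**
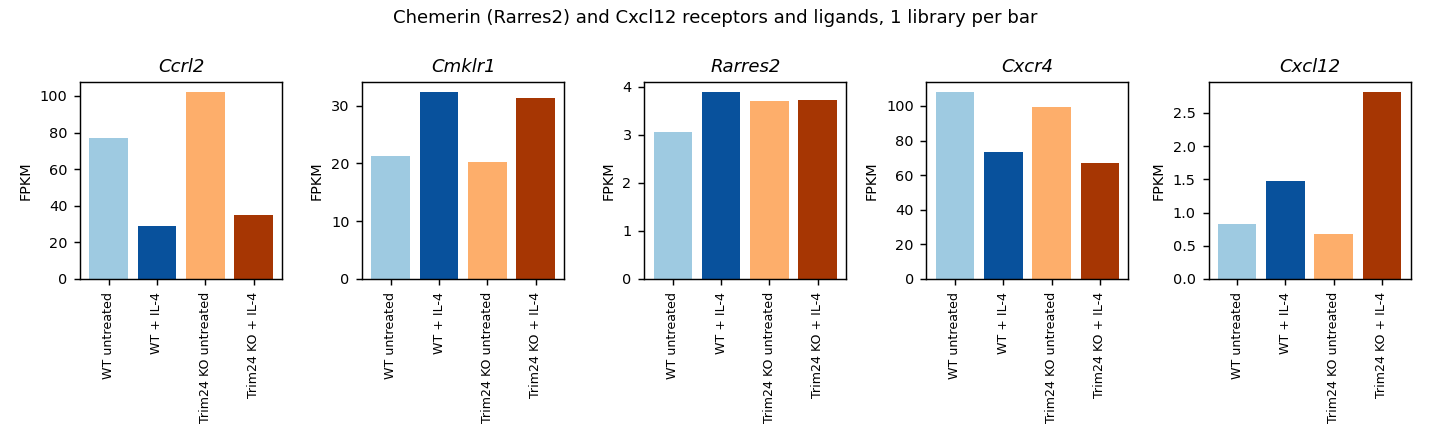
FPKM of Ccrl2, Cmklr1, Rarres2, Cxcr4 and Cxcl12 in the 4 libraries, with 1 bar per library and axes from 0. Ccrl2 and Cxcr4 are lower and Cmklr1 and Cxcl12 higher in both libraries with IL-4.

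Of 17 other chemokine and related receptors on a list, 14 were listed and 3 averaged at least 1 FPKM. In both genotypes 1 was called higher with IL-4 (Cmklr1) and 1 lower (Cxcr1), beside the same all-gene counts as for the ligands. Cxcr1, the neighbour of Cxcr2 on chromosome 1 and like it a receptor of neutrophil chemokines, was at 1.55 and 0.40 FPKM in WT and at 4.34 and 0.49 FPKM in the KO, on 19, 5, 53 and 6 reads. It was called higher in the untreated KO than in untreated WT (log2 ratio 1.43, adjusted p = 0.0016). Ccr7, the receptor of lymph node homing, stayed between 1.56 and 1.93 FPKM and was not called.

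Of 26 genes for the transduction of chemokine signals, 25 averaged at least 1 FPKM. With IL-4, 7 were called lower in WT, against 7.88% of all genes tested, and 7 in the KO, against 4.03%, and none was called higher. Their median log2 ratio was -0.47 in WT and -0.27 in the KO, beside all-gene medians of -0.0080 and 0.0079. With the length trend removed, 4 were called lower and 1 higher in WT, with a median of -0.27, and 7 lower in the KO, with a median of -0.19. Rgs1, which ends G protein signalling, was at 93.8 and 43.6 FPKM in WT and at 74.8 and 27.6 FPKM in the KO, and fell in both. Arrb2, an arrestin, was at 71.5 and 47.1 FPKM in WT and at 63.5 and 39.7 FPKM in the KO and also fell in both. Gnai2, the inhibitory G protein subunit most abundant here, was at 444 and 296 FPKM in WT and at 445 and 344 FPKM in the KO. It was called lower in WT (log2 ratio -0.59) and, though also lower in the KO (-0.37), was not called there. Vav1, an exchange factor for Rac, was at 31.2 and 21.0 FPKM in WT and at 32.0 and 19.5 FPKM in the KO. It was called lower in the KO (-0.71) and just missed the 1.5-fold threshold in WT (-0.57). Rac1 stayed between 195 and 212 FPKM. Between genotypes, none was called without IL-4, against 1.58% of all genes tested. With IL-4, 1 was called higher (Grk3, a receptor kinase) and 1 lower (Rgs1), against 3.81% of all genes tested in either direction. Grk3 was chosen after its value was seen, and both calls were lost with the length trend removed.

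Among the markers of other leukocytes, Csf3r had the highest level. The summed level of 9 neutrophil markers was 50.1 FPKM in untreated WT and 81.3 FPKM with IL-4, and 46.4 and 84.1 FPKM in the KO. Most of it was Csf3r, at 41.2 and 76.0 FPKM in WT and 40.8 and 76.3 FPKM in the KO. S100a8 was at 8.76 and 5.15 FPKM in WT and 5.26 and 7.52 FPKM in the KO. Of the 9 markers 5 or 6 were at 0 in each library, among them S100a9, Ly6g and Camp. The 6 eosinophil markers summed to between 2.50 and 2.83 FPKM, with the granule gene Epx at 0 throughout. Within that sum single markers moved in opposite directions with IL-4. Siglecf was called lower in WT, from 1.89 to 0.95 FPKM. Alox15 was called higher in both genotypes, from 0.15 to 1.06 FPKM in WT and from 0.19 to 1.01 FPKM in the KO. The 4 monocyte markers summed to between 0.78 and 1.59 FPKM. The mast cell and basophil markers summed to 4.75 and 3.63 FPKM in WT and to 9.12 and 5.64 FPKM in the KO. Of these, Cma1 was called higher in the untreated KO than in untreated WT (Fisher's exact test, adjusted p = 8.6e-04). Cpa3 was called higher in the KO than in WT with IL-4 (adjusted p = 0.018). B cell markers summed to between 4.23 and 6.52 FPKM. Sums of dendritic cell markers were 2.72 to 2.91 FPKM and those of T and NK cell markers 1.05 to 2.04 FPKM. The 4 markers of resident peritoneal macrophages summed to between 7.86 and 10.5 FPKM. Among them, Prg4 was called lower in the KO at each treatment. Its levels without and with IL-4 were 5.59 and 5.37 FPKM in WT, and 3.39 and 3.53 FPKM in the KO. Gata6 was called lower in the KO only under IL-4, at 1.19 FPKM against 2.13 FPKM in WT. Timd4 and Icam2 were not called between genotypes. The fibroblast and mesothelial markers summed to 38.5 and 34.1 FPKM in WT and to 19.8 and 39.5 FPKM in the KO. These markers did not move together. With IL-4 in the KO, Col1a1, Col1a2 and Krt19 were called higher, and Dcn, Msln and Upk3b were not called. Against WT with IL-4, Col1a1 and Msln were called higher in the KO and Dcn lower. Fibroblasts and mesothelial cells are a known source of Cxcl12. The part of any of the cell types above in the receptor and ligand levels was not tested.

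The genes closest in pattern to each receptor were found among 7453 genes that averaged at least 5 FPKM, by the distance between log2 profiles over the 4 libraries. The closest to Ccrl2 were Bambi-ps1 (distance 0.14), Retreg1 (0.16) and C5ar1 (0.16). C5ar1, the receptor of complement C5a, is another chemoattractant receptor, and was at 30.1, 11.4, 35.9 and 12.4 FPKM in untreated WT, WT with IL-4, untreated KO and KO with IL-4. The closest to Cxcr4 were Camk1 (distance 0.021), Il21r (0.024) and Tsc22d4 (0.029). The closest to Ccr1 were Thap12, Hmgb1 and Plin2, those to Cxcr2 were Epb41l1, Gm2a and Pex6, and those to Cx3cr1 were Rsph9, Vav3 and Acod1. With 4 points a close profile is easily found, and these are descriptions.

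Receptor genes that lie side by side differed in level. Of the 7 genes 5 lie on chromosome 9 and 2 on chromosome 1 in GRCm38.p6. Ccr1 (chr9:123962126-123968692), Ccr3 (chr9:124017825-124031692) and Ccr2 (chr9:124101918-124109140) lie within 147 kb, and their levels ran from 8.13 to 9.65 FPKM for Ccr1 down to at most 0.03 FPKM for Ccr3. Ccrl2 (chr9:111054834-111057518) and Cx3cr1 (chr9:120048683-120068296) lie elsewhere on the chromosome. Cxcr2 (chr1:74153994-74161246) and Cxcr4 (chr1:128588199-128592299) are on chromosome 1.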

How the data were processed

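Total RNA of peritoneal macrophages was sequenced on an Illumina HiSeq instrument in 4 libraries, 1 per genotype and treatment. The authors used Bowtie for mapping to GRCm38 (mm10) and RSEM for quantification, with versions not given in the sources used here. The deposited expected counts are the reads that RSEM assigned to a gene, and are not whole where a read fits more than 1 gene, as for Ccr2, Cxcr2 and Cx3cr1. The authors' FPKM values divide these by effective transcript length and library total. Genes not listed were set to 0. Whether counting used strand is not stated.

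Fisher's exact test (two-sided) on rounded expected counts compared pairs of libraries, with Benjamini-Hochberg adjustment over all genes with a read, and calls required an adjusted p under 0.05 and more than 1.5-fold on FPKM + 0.1. Differences of responses used a z test on counts + 0.5 with counting error. An additive model was fitted with edgeR 4.0.16 (TMM, filterByExpr, quasi-likelihood test), with DESeq2 1.42.0 and limma 3.58.1 as alternatives. The others were pseudocounts of 0.01 and 1, a minimum mean of 1 FPKM, TMM, upper-quartile and CPM scaling, a fold of 2, assumed biological coefficients of variation of 0.2 and 0.4, and a lowess trend (fraction 0.3) over transcript length removed. The Fisher test, the difference of responses, the additive edgeR fit and the removal of the length trend were tried on simulated data. Those data held little or no spread beyond counting error, and DESeq2, limma and edgeR's exact test were not tried on them. R 4.3.3, Python 3.11.15 and scipy 1.17.1 were used.

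The 7 genes, gene lists and tests were chosen with earlier results of these data known. The text names the 7 receptors, their listed ligands, the 3 closest profiles, Trim24 and some of the markers. For the other receptors and the transduction genes it names the 4 most abundant called and the 2 most abundant whether called or not. The list of other receptors and the search for close profiles leave out 1 chemokine receptor gene, which is not reported here and stays in every fit over all genes.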

Additional observations from a re-analysis of the deposited data

How the results depend on the processing

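Of 120 alternative log2 ratios of single receptors, 113 kept their direction and their side of the threshold. The exceptions were Cxcr4 with the length trend removed (gained in both genotypes), Cx3cr1 in WT with a pseudocount of 1 (lost) and 4 sign changes. The 2 receptors called lower with IL-4 in WT became 1 with a pseudocount of 1 or a fold of 2, 0 when the biological coefficient of variation was assumed to be 0.2 or 0.4, and 3 with the length trend removed. The 2 called lower with IL-4 in the additive fit became 3 with upper-quartile scaling and with the length trend removed. The 1 receptor called in the KO became 0 with a coefficient of 0.4 and 2 with the length trend removed, since Cxcr4 then passed. The 0 receptors called for genotype in the additive fit became 1 (Ccrl2) with upper-quartile scaling and with the length trend removed. Shares over all genes are not given for the alternative settings, so these counts have no background beside them. Signs turned only for ratios near zero: Cxcr2 with IL-4 in WT was 0.0015 with TMM scaling, and with the length trend removed Ccr1 and Cxcr2 with IL-4 in the KO were -0.018 and -0.0045 and Cx3cr1 in the KO with IL-4 against WT was -0.022. The cause was not tested. Across genes, the log2 ratios followed transcript length with a Spearman's rho of -0.36 for IL-4 in WT and 0.51 for the KO with IL-4. It was -0.10 for IL-4 in the KO and 0.12 for the KO without IL-4. Both larger values belong to pairs that hold the WT library with IL-4, which the difference of responses also uses. The groups share no replicate numbers beyond their single libraries, so no replicate block was fitted. The additive fit takes the IL-4 effect within each genotype.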
